A study of Caenorhabditis elegans with 26 samples.

Results

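Transgene-derived small RNAs were compared between 5 Caenorhabditis elegans strains in which lambdaN tethering was applied to an Argonaute protein or to the P granule scaffold PGL-3, and the control labelled lambdaN tethered strain wild type, called tethered wild type below. The members are taken by label, with earlier results of these data known: the strains labelled lambdaN tethered PRG-1, RDE-1, WAGO-1, WAGO-3 and PGL-3, with 2 libraries each. These 10 libraries and the 2 control libraries belong to a series of 26 libraries from whole worms in 13 groups of 2. The measured value was the number of reads mapped to the transgene, 1 value per library, with no positions along the transgene and no gene counts for these strains. Per the labels' protocols, small RNAs were extracted with Trizol from lysed worms and, so that secondary small RNAs with their triphosphate ends could be cloned, given PIR-1 phosphatase before both linkers were ligated. The labels give no age, no allele besides the tethered protein and no treatment for these strains. The promoter and cell type of the fusion proteins, the makeup of the transgene, and what the tethered wild type strain carries are not stated in these sources. Whether the libraries of a strain came from separate cultures is also not stated, so every spread below is between libraries and may be technical.

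LambdaN comes from a bacteriophage and binds a short RNA hairpin called boxB, so that fusing it to a protein recruits that protein to RNAs with boxB hairpins. In worm RNA interference, primary Argonautes find a target with their own guide RNAs, and RNA-dependent RNA polymerases then make secondary small RNAs on that target, which secondary Argonautes bind. PRG-1 is the Piwi protein that uses piRNAs as guides, and RDE-1 is the primary Argonaute of the response to double-stranded RNA. WAGO-1 and WAGO-3 (gene ppw-2) are worm-specific Argonautes that carry secondary small RNAs in the germline. PGL-3 is an RNA-binding protein that forms the core of P granules, condensates on the outside of germline nuclei. The comparison asked whether bringing a protein of each kind to the transcript went with more or fewer transgene small RNAs.

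The 10 tethered libraries held between 71 and 191 reads, against 152 and 175 in tethered wild type. Tethered RDE-1 and PRG-1 overlapped the control, PGL-3 lay just under it, and WAGO-3 and WAGO-1 held the fewest reads. The 4 WAGO libraries, at 111 reads or fewer, lay under all 8 other libraries of the comparison, which held 124 reads or more. Over the 6 groups, 92.3% of the variance of log2(reads + 1) lay between groups rather than between the libraries of a group (exact permutation test over all 10395 ways of pairing the 12 libraries, p = 0.00279). Pairs drawn at random also put part of the variance between groups, which the test takes into account. The test takes libraries as independent units. Since separate cultures are not stated, its p does not measure the spread between cultures of a strain. The pseudocount of 1 is used for all log2 values below.

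**Figure D1:**
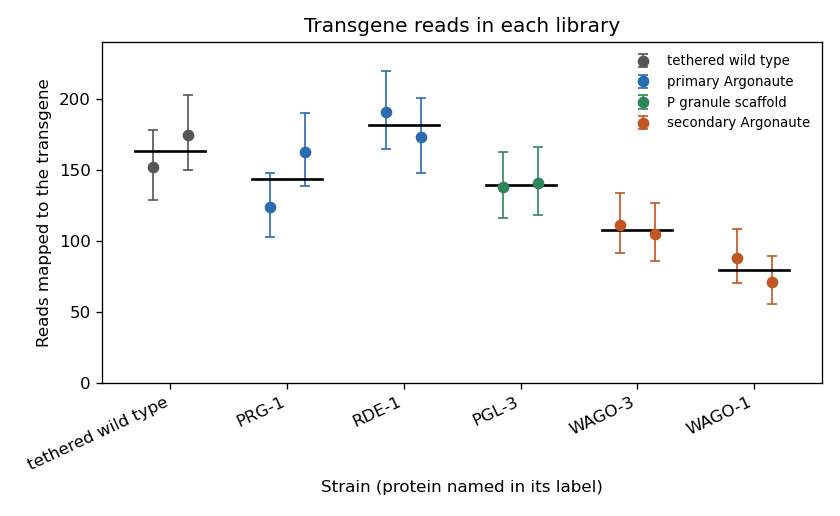
Reads mapped to the transgene (vertical axis, linear from 0) in each library of the 6 groups. Points are libraries with exact 95% Poisson intervals, which cover counting error only, and black lines are means of 2 libraries. The WAGO-3 libraries (105 and 111 reads) and the WAGO-1 libraries (71 and 88 reads) sit under every other library.

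Neither library totals of the tethered strains nor a scaling to a common total are stated in these sources, so the depth behind each value is unknown. In the 6 libraries without tethering, for which gene counts were analysed, counted reads ranged from 515300 to 1571194, a 3.05-fold span, and differed by up to 2.53-fold between libraries of 1 group. The transgene reads of the 10 tethered libraries spanned 2.69-fold, and the libraries of 1 group differed by 1.02- to 1.31-fold. The part of depth in the differences between strains was not tested. Since the libraries came from whole worms, fewer cells with the transgene active and fewer small RNAs per cell cannot be told apart.

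Among the primary Argonautes, tethered RDE-1 held 191 reads in library 1 and 173 in library 2, a mean of 182 ± 12.7 (SD, n = 2). The tethered wild type libraries held 152 and 175 reads, a mean of 163.5 ± 16.3 (SD, n = 2). The ranges of the 2 strains overlapped, and the log2 difference from control was 0.16 (SE 0.12). The smallest p that an exact 2-sided permutation test allows for 2 and 2 libraries is 0.333, so none of the 5 contrasts with the control could pass a threshold of 0.05. For RDE-1 the exact permutation p was 0.667, and also 0.667 after Benjamini-Hochberg adjustment over the 5 strains. The reads of both libraries together were 1.11 times those of the control, with a 95% counting interval of 0.956 to 1.30. This interval takes the values as raw, unscaled reads, the reads as independent and the libraries as equally deep, and so covers counting error only. It leaves room for a rise of up to 1.30 times and for a small fall.

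Tethered PRG-1 held 124 and 163 reads, a mean of 143.5 ± 27.6 (SD, n = 2). Its higher library lay between the control libraries and its lower one under both. The log2 difference from control was −0.20 (SE 0.22; exact permutation p = 0.667, adjusted p = 0.667). The summed reads were 0.878 times those of the control, with a counting interval of 0.746 to 1.03. PRG-1 was the strain whose libraries differed most: library 2 held 1.31 times the reads of library 1, with a counting interval of 1.03 to 1.67. In the other 5 groups, the control included, the interval of that ratio contained 1. Strains of the same assay with a tethered mutator protein, described below, held more reads in most cases. There the interval left out 1 for MUT-14 (0.868 to 0.980), MUT-16 (1.07 to 1.27) and MUT-16(ex773-1050) (0.847 to 0.938). It contained 1 for MUT-16(de773-1050) (0.662 to 1.17). Libraries of 1 strain can thus differ by more than the counting intervals cover.

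Of the secondary Argonautes, WAGO-1 held 88 and 71 reads, a mean of 79.5 ± 12.0 (SD, n = 2). Both libraries lay under all libraries of the other 5 groups. The log2 difference from tethered wild type was −1.04 (SE 0.18), with the exact permutation p at the smallest value that 2 against 2 libraries allow (0.333; adjusted p = 0.556). The control held 2.06 times as many summed reads as WAGO-1, with a counting interval of 1.70 to 2.50.

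WAGO-3 held 111 and 105 reads, a mean of 108 ± 4.24 (SD, n = 2). It lay above WAGO-1 and under the other 4 groups, without overlap. The log2 difference from tethered wild type was −0.59 (SE 0.11; exact permutation p = 0.333, adjusted p = 0.556). The control held 1.51 times as many summed reads, with a counting interval of 1.27 to 1.81. Between the 2 secondary Argonautes, WAGO-1 held 0.736 times the summed reads of WAGO-3 (counting interval 0.596 to 0.908).

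The scaffold PGL-3 held 138 and 141 reads, a mean of 139.5 ± 2.12 (SD, n = 2). Both libraries lay under both control libraries and within the range of PRG-1. The log2 difference from control was −0.22 (SE 0.10; exact permutation p = 0.333, adjusted p = 0.556). The summed reads were 0.853 times those of the control, and the counting interval of 0.725 to 1.00 contained 1. Against PRG-1, the summed reads of PRG-1 were 1.03 times those of PGL-3 (counting interval 0.869 to 1.22).

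**Figure D2:**
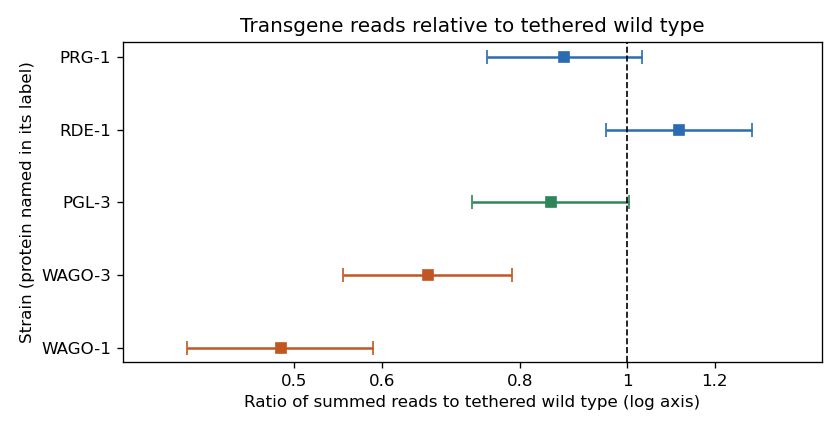
Summed reads of each strain divided by those of tethered wild type (horizontal log axis), with 95% counting intervals; the dashed line marks a ratio of 1. The intervals of WAGO-3 (0.554 to 0.787) and WAGO-1 (0.400 to 0.589) lie under 1, and those of the other 3 strains contain it. All 5 ratios share the same control libraries.

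From the highest to the lowest mean, the order was RDE-1, tethered wild type, PRG-1, PGL-3, WAGO-3 and WAGO-1. Neighbours in this order overlapped down to PGL-3: RDE-1 with tethered wild type, tethered wild type with PRG-1, and PRG-1 with PGL-3. The step from PGL-3 to WAGO-3 and that from WAGO-3 to WAGO-1 had no overlap. Of the 15 pairs of groups, 12 had libraries that did not overlap, and in 11 of these the counting interval of the ratio also left out 1. The remaining pair of those 12 was PGL-3 and tethered wild type. Between 2 groups that do not differ, 2 libraries against 2 lie apart with a probability of 0.333. The pairs also share libraries, and their intervals are unadjusted and take the values as raw reads from equally deep libraries. These counts therefore describe the order and are not separate tests. RDE-1 held 2.29 times the reads of WAGO-1 (counting interval 1.90 to 2.78), the widest gap among the 15 pairs.

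The primary Argonautes held more transgene reads than the secondary ones in every library. PRG-1 and RDE-1 spanned 124 to 191 reads over 4 libraries with a median of 168, and WAGO-1 and WAGO-3 spanned 71 to 111 with a median of 96.5. Between the strain means the log2 difference was 0.79 (SE 0.28, n = 2 strains each), or 1.73-fold. The strain is the replicate of a class here, and with 2 strains against 2 the exact permutation p was 0.333, the smallest possible. With the 8 libraries taken as the units the p was 0.0286, also the smallest possible, but libraries of 1 strain are not independent samples of a class. Within the classes, RDE-1 lay above PRG-1 and WAGO-3 above WAGO-1, in both cases without overlap.

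The log2 mean of tethered PGL-3 (7.13) lay between those of the primary (7.34) and secondary Argonautes (6.55), while both of its libraries lay inside the range of the primary ones. Its log2 mean was 0.19 above that of the 4 Argonaute strains, which themselves spanned 71 to 191 reads (exact permutation test, 1 strain against 4, p = 1, where 0.4 is the smallest possible). As 1 group, the 5 strains did not pass a test against the control either. The 10 tethered libraries differed in log2 mean from tethered wild type by −0.38 (SE 0.17; exact permutation test, p = 0.273, where 0.0303 is the smallest possible), with 7 of 10 libraries under both control libraries and 1 above both. This test and its SE take libraries as units, although libraries of 1 strain are not independent. With strain means as units, 5 against 1, the exact permutation p was 0.667, but no p under 0.05 is possible there. The difference depended on which strains were included: it was −0.21 without WAGO-1, −0.33 without WAGO-3 and −0.51 without RDE-1, and p was 0.4, 0.4 and 0.0889 by the same exact test over libraries.

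The Argonaute and PGL-3 strains lay far under most strains of the same assay with a tethered mutator protein, the machinery of secondary small-RNA synthesis. MUT-16, the scaffold of the mutator foci, held 962 and 1120 reads. MUT-14, a DEAD-box RNA helicase of these foci, held 2208 and 2037, and the form labelled MUT-16(ex773-1050) held 3171 and 2825. The lowest of these 6 libraries held 5.04 times the reads of the highest Argonaute or PGL-3 library. The form labelled MUT-16(de773-1050) held 109 and 96 reads, within the span of the WAGO libraries. With all 4 mutator strains, the log2 mean of the 5 Argonaute and PGL-3 strains differed from theirs by −2.85 (SE 1.11), and the exact 2-sided permutation test over strain means gave p = 0.0794, which did not pass. All of these mutator strains but MUT-14 carry a form of 1 protein, MUT-16. The SE and the p-values of this contrast nevertheless count each form as an independent replicate of the class. Without MUT-16(de773-1050), a choice made after its values were seen, the log2 difference was −3.89 and the exact permutation p was 0.0357, the smallest that 5 against 3 strains allow. A set of strains left out for its values gives a description and no support.

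**Figure D3:**
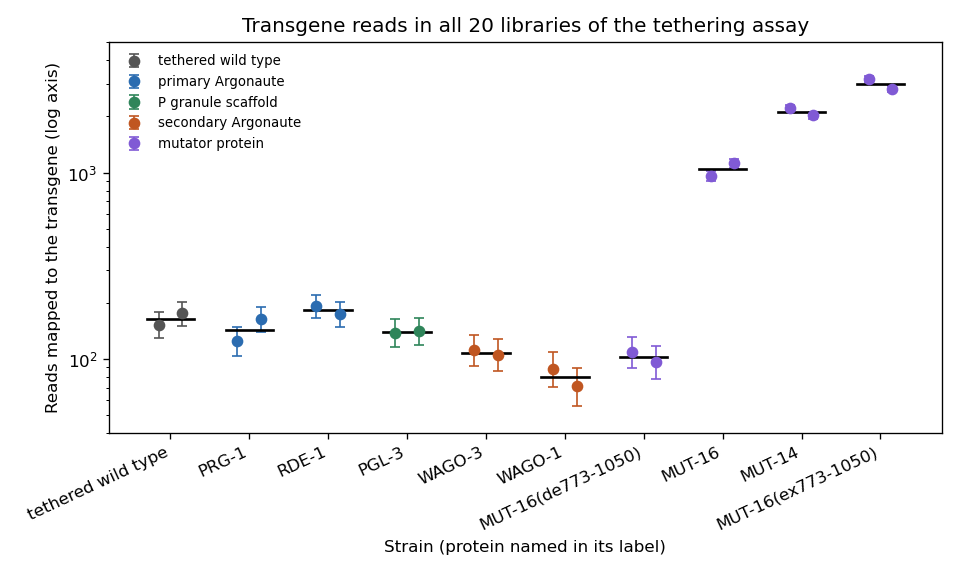
Reads mapped to the transgene (vertical log axis) in all 20 libraries of the tethering assay. Points are libraries with exact 95% Poisson intervals and black lines are means of 2 libraries. The Argonaute, PGL-3, tethered wild type and MUT-16(de773-1050) libraries lie between 71 and 191 reads, and the other 6 libraries between 962 and 3171.

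Small-RNA reads were also counted on the genes that encode the tethered proteins, in the WT libraries without tethering. Levels are RPKM, reads per kb of exon scaled to the counted reads of the library, computed here from the deposited counts, and describe small RNAs, not mRNA or protein. At prg-1 (chromosome I, 7585329 to 7588367 in WBcel235, minus strand) the libraries held 714 and 952 reads, a level of 248 ± 21.0 RPKM (SD, n = 2). This was above the level of 99.0% of 19940 protein-coding genes, whose median was 0.474 RPKM. Of these genes, 12331 had a read in the WT libraries. The median and the percentages of genes include those without reads. The gene D2030.12 overlaps prg-1 on the other strand, and whether counting used strand is not given in the sources used here.

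At ppw-2, the gene of WAGO-3 (chromosome I, 5158511 to 5162232, minus strand), the level was 84.4 ± 2.54 RPKM (SD, n = 2) from 323 and 366 reads, above 97.5% of genes. The gene wago-1 (chromosome I, 7235384 to 7238792, plus strand) had 24.8 ± 0.0230 RPKM (SD, n = 2) from 87 and 103 reads. At rde-1 (chromosome V, 9987916 to 9991642, minus strand) it was 17.3 ± 3.04 RPKM (SD, n = 2) from 56 and 85 reads. These 4 Argonaute genes each lay above at least 87.1% of protein-coding genes. The gene pgl-3 (chromosome V, 4755979 to 4758587, plus strand) held 3 and 5 reads, a level of 1.38 ± 0.331 RPKM (SD, n = 2), above 63.6% of genes. Its rank from the top was 7268, which is below the middle of the 12331 genes with a WT read. By these levels the order was prg-1, ppw-2, wago-1, rde-1 and pgl-3, and the ranges of the 2 libraries did not overlap between any neighbours. In this order prg-1 came first and rde-1 next to last. The order is not comparable with that of the transgene reads, which come from another target, other strains and counts without a stated scaling. A relation between the 2 orders was not tested.

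**Figure D4:**
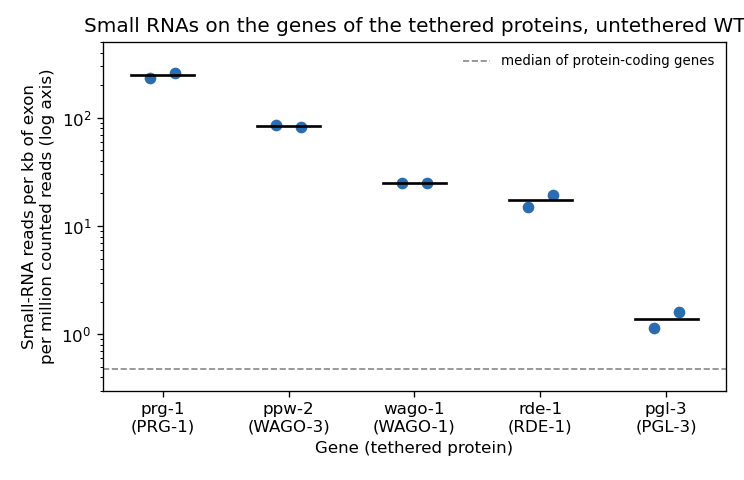
Small-RNA level on the genes of the 5 tethered proteins in the 2 WT libraries without tethering, in RPKM (vertical log axis). Points are libraries, black lines are means, and the dashed line is the median of 19940 protein-coding genes, those without reads included (0.474 RPKM). The 4 Argonaute genes lie well above the line, and pgl-3 lies closest to it.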

How the data were processed

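The authors deposited 1 table of whole-number counts. Per the file headers, it holds reads per transcript for 6 libraries without tethering and reads mapped to the transgene, 1 count per library, for 20 tethered libraries. Per the submitters' processing notes, cutadapt 4.9, Bowtie 1.3.1 and the WBcel235 build were used; their roles and settings are not listed. The counting rules (strand, multi-mapping reads, PCR duplicates) and any scaling of the transgene counts are not stated in these sources.

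Transgene reads were analysed as deposited, on the scale log2(reads + 1), in Python 3.11.15 with numpy 2.4.6 and scipy 1.17.1. A single value per library allows no model across genes, so exact permutation tests were used, with a threshold of 0.05. Tests of a difference were 2-sided, with doubled one-sided tails. For the test over the 6 groups, p was the proportion of arrangements with a share of variance at least as large. Poisson and binomial intervals are exact at 95% only if the values are raw reads, and they cover counting error only. The SE of a log2 difference comes from the library or strain SDs. Tests were run on strain means where classes of proteins were compared. For the genes of the tethered proteins, the only genes named by rule, transcript counts were summed to genes: 33755 of 34324 identifiers matched a transcript of the WBcel235 annotation, and 1 row without a gene name held 0 reads. The members and comparisons were chosen with earlier results of these data known. Alternatives were a linear scale, a pseudocount of 10, each library left out, a replicate block and another unit of testing.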

Additional observations from a re-analysis of the deposited data

How the results depend on the processing

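None of 118 repeats of these tests with another setting turned a direction, and 3 passed where the test as reported did not. For many repeats no direction could turn. The 15 repeats of the test over the 6 groups give a share of variance, which has no direction. Repeats of a contrast with another unit or a replicate block changed only the p and kept the difference. Many of the repeats also say nothing about stability of a call. No p under 0.05 was possible with 2 libraries against 2, or with strain means of all tethered strains against the control. The same held for strain means of primary against secondary Argonautes and for PGL-3 against 4 strains. Primary against secondary Argonautes passed with libraries as units (log2 difference 0.79, exact permutation p = 0.0286), and the construction shows the cause, since 8 libraries allow a smaller p than 4 strains. The contrast with mutator strains passed with a replicate block that permuted libraries within a replicate number (−2.85, exact permutation p = 0.00365), which counts the libraries of 1 strain as separate replicates of its class and so gives no support beyond the strain means, and without MUT-16(de773-1050) (−3.89, p = 0.0357). The replicate numbers share no stated batch, and library 2 was the higher in 3 of 6 groups. With the replicate block the share of variance between the 6 groups was 92.3% (exact permutation p = 0.00833). Leaving out each library gave 90.8% to 96.0% (p from 0.000770 to 0.0126). Against tethered wild type it gave log2 differences from −0.39 to −0.00086 for PRG-1, 0.05 to 0.26 for RDE-1, −0.33 to −0.12 for PGL-3, −0.69 to −0.49 for WAGO-3 and −1.19 to −0.88 for WAGO-1. The differences of PRG-1, RDE-1 and PGL-3 thus moved by over 1.5 times with 1 library. Depth limits all of these values, because library totals are unknown and the lowest libraries rest on 71 and 88 reads.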
